A study of Mus musculus with 9 samples.

Results

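The interleukin 1 (IL-1) family ligands and receptors were followed in mouse keratinocytes over the first 2 weeks after birth, as 10 genes of the 24532 in the deposited count table. They were chosen by gene symbol and comprise the ligands Il33, Il18, Il1a and Il1b, the receptor antagonist Il1rn, and the receptor genes Il1r1, Il1r2, Il1rap, Il1rl1 and Il1rl2. The cells came from the skin of C57BL/6 mice at postnatal days 1, 7 and 14, with 3 libraries at each day and 9 in all, and the labels name no genetic change and no treatment. Viable cells without surface CD45.2, a pan-leukocyte marker, were sorted from fresh skin, and their RNA was sequenced as stranded mRNA libraries. That gate takes no keratinocyte marker, and the labels give neither the sex of the animals nor whether libraries came from separate animals or pools, so the p-values reflect variation among the libraries alone, some or all of it possibly technical.

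IL-1 family cytokines are alarm signals of barrier tissues. IL-1 alpha, IL-1 beta and IL-33 each bind a ligand-specific receptor chain that then recruits the shared accessory chain encoded by Il1rap, and the assembled complex signals through MyD88 and IRAK kinases to NF-kB. Keratinocytes are a known source of several of these ligands, and the same cells make the brakes of the system, namely the receptor antagonist that occupies the signalling receptor without activating it and the decoy receptor that binds ligand without signalling.

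The libraries held between 50670191 and 62970768 counts. The day 1 libraries are headed D0, which matches no sample title, and were assigned to day 1 by elimination. The headers of all 9 libraries begin with SPF, which they do not spell out. Library numbers in the headers are 4 to 6 for days 1 and 14 but 1 to 3 for day 7, and per-library values follow that numbering. The keratinocyte genes Krt5 and Krt14 stood at 21075 to 22897 and 12571 to 13130 CPM (library-scaled counts on TMM-scaled totals) at day 1, 21996 to 23124 and 10043 to 10797 at day 7, and 14748 to 16512 and 6639 to 7466 at day 14. Keratinocyte markers did not all fall, as Itga6 averaged 1007, 1201 and 1424 CPM at the 3 days, against 6623, 6324 and 3370 CPM for Krt1. Ptprc, which encodes CD45, had at most 9 counts in any library. Xist and the Y-linked Ddx3y were both present in every day 1 library (861 to 1642 and 29.0 to 55.6 CPM). Each of these libraries thus appears to hold RNA of both sexes, and so of more than 1 animal. Xist was at 0 at day 7, with Ddx3y at 101 to 112 CPM, whereas at day 14 Xist stood at 2328 to 2682 CPM and Ddx3y at 0. Sex composition and the differing header style of day 7 therefore move with age and cannot be told apart from it.

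Of the 10 genes, 9 passed the filter on low counts and were tested, and Il1rl1 did not. Between day 7 and day 1, 6 of the 9 were higher at day 7 and 0 were lower, in edgeR's quasi-likelihood test with adjustment over 14507 genes and a threshold of 0.05. Across all genes tested, 25.5% were higher and 24% were lower in that comparison. Between day 14 and day 7, 4 were higher (32.5% of all genes) and 1 was lower (35.1% of all genes). Between day 14 and day 1, 6 were higher (35.5% of all genes) and 0 were lower (38.4% of all genes). The median log2 change of the 9 genes was 0.62, 0.35 and 1.35 in these 3 comparisons, beside -0.00053, -0.04 and -0.05 over all genes tested. The same 6 genes, Il33, Il1rn, Il1r1, Il1r2, Il1rap and Il1rl2, passed the test of any difference over the 3 days, which 82.1% of all genes also passed.

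**Figure D1:**
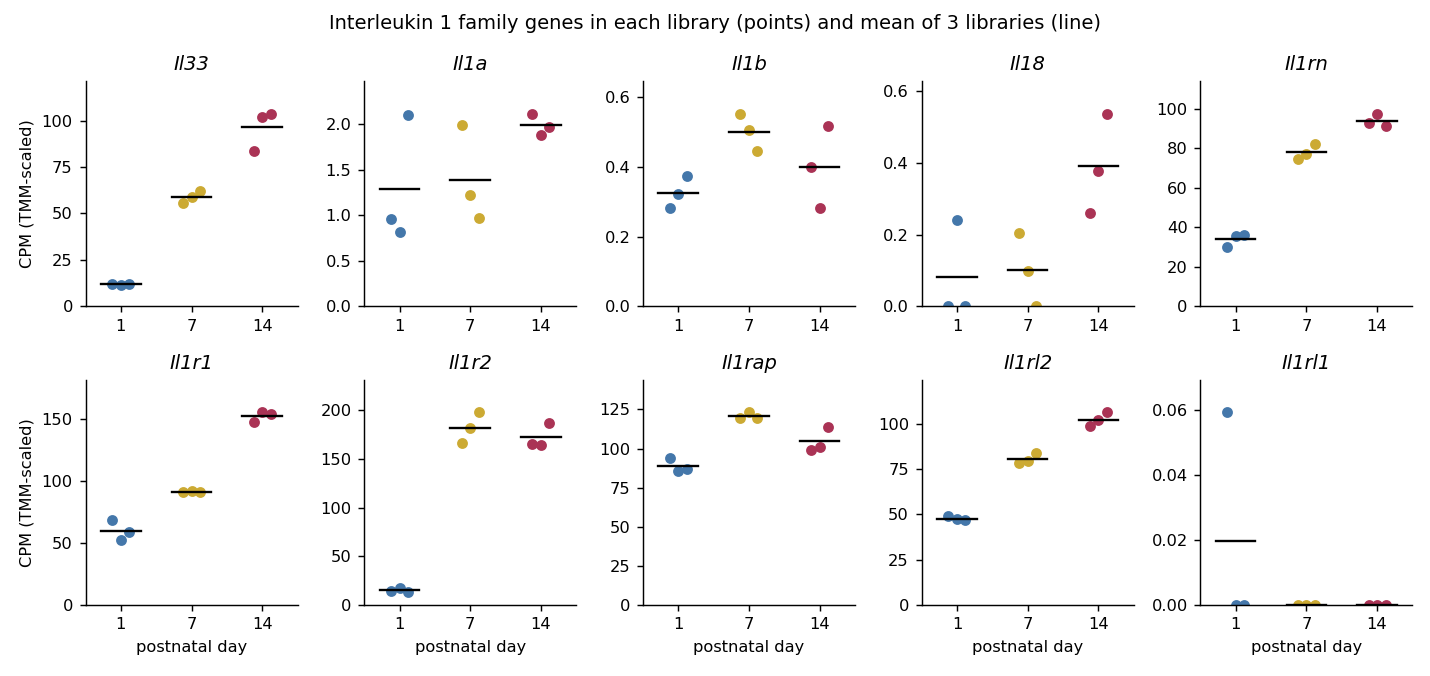
CPM of the 10 genes (vertical axes, each gene on its own scale from 0) in each library at postnatal days 1, 7 and 14, with lines for the mean of 3 libraries. Il33 averages 11.8, 58.9 and 96.5 CPM at the 3 days, Il1r2 reaches its day 7 level of 182 CPM and stays near it, and Il1a, Il1b, Il18 and Il1rl1 lie at or under 2.12 CPM in every library.

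Il33 encodes IL-33, a nuclear cytokine that is released from damaged barrier cells. Il33 (chr19:29925113-29960718, GRCm38) had 11.8, 11.5 and 12.2 CPM at day 1, 55.7, 59.1 and 61.9 CPM at day 7, and 83.9, 101.9 and 103.7 CPM at day 14. No library of one day overlapped with those of another, and the libraries of day 14 were all above those of day 7. Il33 was 4.98-fold higher at day 7 than at day 1 (log2 2.32 ± 0.08 SE, n = 3 libraries a day, edgeR adjusted p = 1.57e-09) and 1.64-fold higher at day 14 than at day 7 (log2 0.71 ± 0.07, adjusted p = 3.73e-06). Over the whole interval the difference was 8.17-fold (log2 3.03 ± 0.08, adjusted p = 1.66e-11).

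The rise of Il33 was steeper in the first week. That difference was tested as the log2 change of the second step (day 14 versus day 7) minus that of the first step (day 7 versus day 1), which was -1.60 ± 0.13 for Il33 (adjusted p = 1.80e-06). In this test 5 of the 9 genes were lower, that is, had a second step below their first, beside 27.6% of all genes tested, and 0 of the 9 were higher. The 5 genes were Il33, Il1rn, Il1r2, Il1rap and Il1rl2. Il1r1 was the exception among the 6 changed genes, with a difference of 0.13 ± 0.13 (adjusted p = 0.445).

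The other ligands were scarce. Il1a (chr2:129299609-129310186), which encodes IL-1 alpha, the ligand that keratinocytes hold in preformed state, had 65, 51 and 129 counts at day 1, 126, 75 and 50 counts at day 7, and 106, 100 and 99 counts at day 14. The libraries of days 1 and 7 spread widely and overlapped with each other, and the counts of day 14 lay within their range. Il1a did not pass in any comparison (log2 0.11 ± 0.36 in the first step, 0.51 ± 0.36 in the second and 0.62 ± 0.36 over both, adjusted p = 0.819, 0.227 and 0.135). The call for day 14 versus day 1 rested on 1 library, because without library 6 of day 1 the log2 change was 1.15 (adjusted p = 0.00806). Its exons overlap those of the antisense gene Gm14023 by 222 bases, and since the strand setting of the counting is not given, reads of the pair cannot be told apart there.

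Il1b (chr2:129364569-129371164), the inflammasome-dependent ligand IL-1 beta, had 19, 20 and 23 counts at day 1, 35, 31 and 23 counts at day 7, and 20, 15 and 26 counts at day 14. On the CPM scale the day 7 libraries were above those of day 1 without overlap, but the difference did not pass (log2 0.62 ± 0.39, adjusted p = 0.211). Neither did day 14 versus day 7 (-0.33 ± 0.39, adjusted p = 0.474) nor day 14 versus day 1 (0.29 ± 0.40, adjusted p = 0.520). Il18 (chr9:50554700-50581841), which encodes the other ligand matured by caspase-1, had 0, 15 and 0 counts at day 1, 13, 6 and 0 at day 7, and 13, 20 and 27 at day 14. It was seen in all 3 libraries only at day 14. Summed over the libraries of a day, Il18 stood at 0.0784 CPM at day 1 (exact Poisson 95% interval 0.0439 to 0.129, counting error only), 0.108 CPM at day 7 (0.0649 to 0.168) and 0.391 CPM at day 14 (0.299 to 0.504). With the spread between libraries taken in, log2 changes were 1.88 ± 1.10 in the second step and 2.27 ± 1.13 over both steps (adjusted p = 0.151 and 0.0905). Here too 1 library decided the call, since without library 5 of day 1 the comparison of day 14 with day 1 gave an adjusted p of 0.00421, and a fit of the 2 later days alone gave 0.0484 for day 14 versus day 7.

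Il1rn encodes the IL-1 receptor antagonist, in secreted and intracellular isoforms that the gene counts do not separate. Il1rn (chr2:24336860-24351491) had 29.8, 35.7 and 35.8 CPM at day 1, 74.5, 77.3 and 82.1 CPM at day 7, and 92.9, 97.5 and 91.2 CPM at day 14. The days did not overlap, and most of the rise lay in the first step. Il1rn was 2.31-fold higher at day 7 than at day 1 (log2 1.21 ± 0.07, adjusted p = 5.81e-08), and 1.20-fold higher at day 14 than at day 7 (log2 0.27 ± 0.07, adjusted p = 0.00419). At day 14 it was 2.78-fold higher than at day 1 (log2 1.47 ± 0.07, adjusted p = 1.76e-09). The second step did not pass when libraries were scaled by their totals alone (log2 0.09, adjusted p = 0.243). Second step minus first step was -0.94 ± 0.12 (adjusted p = 5.00e-05).

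Counts of Il1rn exceeded those of both IL-1 ligands in every library. The ratio of Il1rn to Il1a counts within a library was 31.0, 43.6 and 17.1 at day 1, 37.4, 63.2 and 84.9 at day 7, and 43.9, 51.7 and 46.3 at day 14, so that the 3 days overlapped. The ratio of Il1rn to Il1b counts was 95.7 to 111 at day 1, 135 to 185 at day 7 and 176 to 345 at day 14. For this ratio days 7 and 14 were both above day 1 in every library, and they overlapped with each other. These ratios need no scaling between libraries, are not corrected for transcript length, and were not tested.

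Il1r1 encodes the signalling receptor for IL-1 alpha and IL-1 beta. Il1r1 (chr1:40222480-40316201) had 68.3, 52.4 and 58.3 CPM at day 1, 90.6, 92.1 and 90.8 CPM at day 7, and 147, 155 and 154 CPM at day 14. The 3 days did not overlap, and the steps were of similar size. Il1r1 was 1.53-fold higher at day 7 than at day 1 (log2 0.61 ± 0.08, adjusted p = 5.04e-05), 1.67-fold higher at day 14 than at day 7 (log2 0.74 ± 0.08, adjusted p = 5.35e-06) and 2.55-fold higher at day 14 than at day 1 (log2 1.35 ± 0.08, adjusted p = 1.88e-08).

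Il1r2 encodes the decoy receptor, whose short cytoplasmic tail does not signal and which takes IL-1 away from the signalling chain. Il1r2 (chr1:40084692-40125230) had 14.5, 17.0 and 13.7 CPM at day 1, 166, 182 and 198 CPM at day 7, and 166, 164 and 187 CPM at day 14. Every library of days 7 and 14 lay far above those of day 1, while days 7 and 14 overlapped. The difference between day 7 and day 1 was 12.1-fold (log2 3.60 ± 0.10, adjusted p = 1.69e-09), larger than that of any of the other 8 genes tested. Between day 14 and day 7 no change passed (log2 -0.08 ± 0.09, adjusted p = 0.436), except with libraries scaled by their totals alone (log2 -0.26, adjusted p = 0.0276). At day 14 Il1r2 was 11.4-fold higher than at day 1 (log2 3.52 ± 0.10, adjusted p = 1.45e-10), and second step minus first step was -3.68 ± 0.15 (adjusted p = 9.06e-08).

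The decoy and the signalling receptor thus took different courses, and their ratio within a library was not monotonic. The ratio of Il1r2 to Il1r1 counts was 0.213, 0.324 and 0.234 at day 1, 1.83, 1.98 and 2.18 at day 7, and 1.12, 1.06 and 1.21 at day 14. The 3 days did not overlap, and day 14 lay between the other days. Per kb of exon, which allows the 2 genes to be set against each other, the ratio was 0.916 to 1.40 at day 1, 7.89 to 9.40 at day 7 and 4.57 to 5.23 at day 14. The ratio was not tested.

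**Figure D2:**
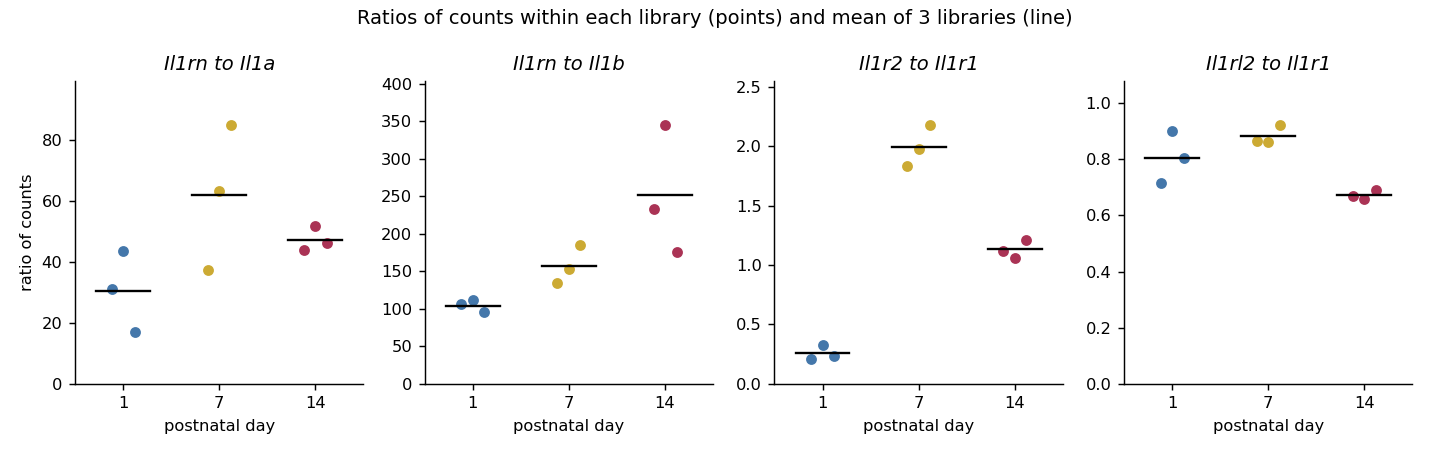
Ratio of raw counts of 2 genes within the same library (vertical axes, from 0) by postnatal day, with a point for each library and a line for the mean of 3. The Il1r2 to Il1r1 ratio lies at 0.213 to 0.324 at day 1, 1.83 to 2.18 at day 7 and 1.06 to 1.21 at day 14, and the Il1rn to Il1a ratios of the 3 days overlap.

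Il1rap encodes the accessory chain shared by the receptors for IL-1, IL-33 and IL-36. Il1rap (chr16:26581509-26730128) had 94.1, 85.4 and 87.1 CPM at day 1, 119, 123 and 119 CPM at day 7, and 99.2, 101 and 114 CPM at day 14. Day 7 was highest, and the libraries of the 3 days did not overlap. Il1rap was 1.36-fold higher at day 7 than at day 1 (log2 0.44 ± 0.06, adjusted p = 4.97e-05). It was the only one of the 9 genes called lower at day 14 than at day 7, where it stood at 0.868 of the day 7 level (log2 -0.20 ± 0.06, adjusted p = 0.00753). Its difference between day 14 and day 1 (log2 0.24 ± 0.06, adjusted p = 0.00247) turned to -0.036 (adjusted p = 0.575) when libraries were scaled by their totals alone. Second step minus first step was -0.64 ± 0.10 (adjusted p = 0.000206). Its exons overlap those of the antisense gene Gm20319 by 353 bases.

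Il1rl2 encodes the ligand-specific chain of the IL-36 receptor. Il1rl2 (chr1:40324589-40367555) had 48.8, 47.2 and 46.9 CPM at day 1, 78.5, 79.2 and 83.7 CPM at day 7, and 98.6, 102 and 106 CPM at day 14. The libraries of each day lay close together and apart from those of the other days. Il1rl2 was 1.69-fold higher at day 7 than at day 1 (log2 0.76 ± 0.05, adjusted p = 8.18e-08) and 1.27-fold higher at day 14 than at day 7 (log2 0.35 ± 0.05, adjusted p = 2.92e-05). Over both steps it was 2.15-fold higher (log2 1.10 ± 0.05, adjusted p = 5.51e-10), and second step minus first step was -0.41 ± 0.08 (adjusted p = 0.00101). Set against the IL-1 receptor, the ratio of Il1rl2 to Il1r1 counts was 0.715 to 0.900 at day 1, 0.860 to 0.922 at day 7 and 0.657 to 0.692 at day 14. Days 1 and 7 overlapped, and day 14 was below both. No test was made of this ratio.

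Il1rl1 (chr1:40404864-40465418), which encodes ST2, the IL-33 receptor, had 4, 0 and 0 counts at day 1 and 0 counts in the 6 libraries of days 7 and 14. A count of 0 allows up to 0.0170 CPM summed over day 7 and 0.0196 CPM summed over day 14, by a limit of 3 counts that covers counting error only. IL-33 transcripts were thus measured in libraries in which transcripts of its receptor were at or near the limit of detection. The sort left out cells with surface CD45.2, so Il1rl1 in the leukocytes of the skin was not assessed. At day 14, where Il18 was counted in all 3 libraries, Il33 counts were 323, 270.2 and 193 times those of Il18.

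**Figure D3:**
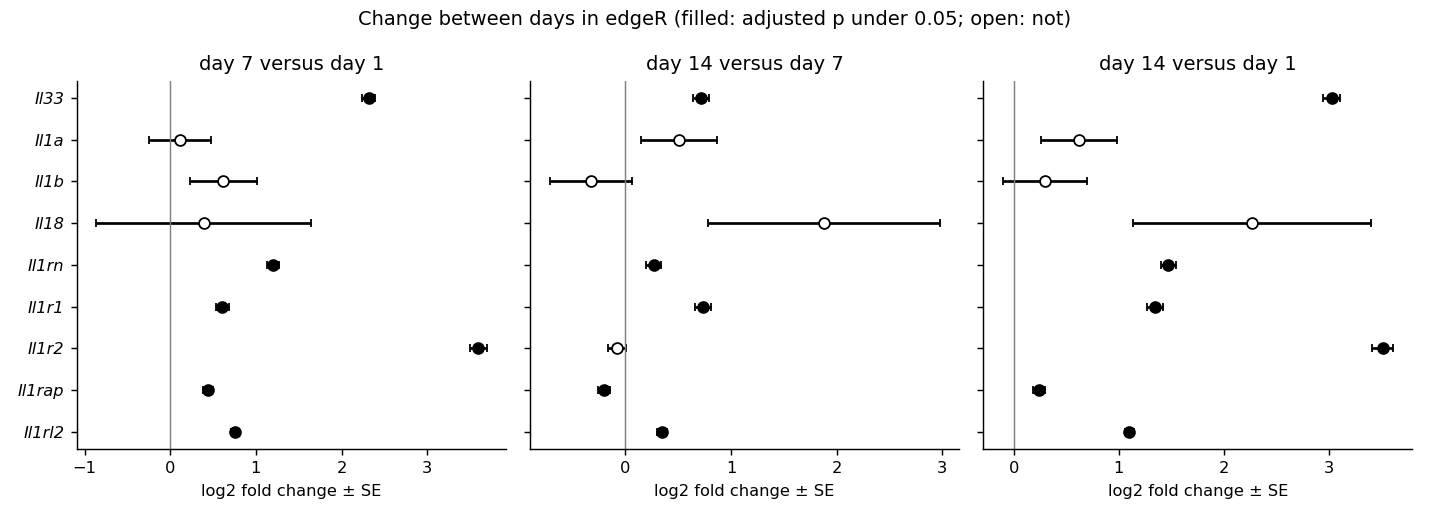
Log2 fold change with its standard error from edgeR (horizontal axes) for the 9 tested genes in the 3 comparisons of days, with filled points for an adjusted p under 0.05. Il1r2 (3.60) and Il33 (2.32) lie farthest to the right at day 7 versus day 1, and Il1rap (-0.20) is the only filled point left of 0, at day 14 versus day 7.

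Counted by overlap, 7 of the 9 tested genes had day 7 libraries that did not overlap with those of day 1, beside 60.3% of all genes tested. The corresponding counts were 6 of 9 for day 14 against day 7 (72.7% of all genes) and 7 of 9 for day 14 against day 1 (77.3% of all genes). These shares were near the background of a series in which most genes differ between days. Among the 9 genes, Il1r2 and Il33 had the largest log2 changes for day 7 versus day 1 (3.60 and 2.32). The middle 50% of all log2 changes in that comparison lay between -0.29 and 0.24. Of the 9, only Il1a (0.11) lay inside that range, so the range does not set Il1r2 and Il33 apart from the others.

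Levels of different genes were compared per kb of exon (CPM divided by the length of the union of the annotated exons of a gene, from 1.031 kb for Il18 to 8.602 kb for Il1rap). At day 1, Il1rn (12.5 ± 1.28 CPM per kb, SD, n = 3), Il1rl2 (11.8 ± 0.263), Il1r2 (10.6 ± 1.21), Il1rap (10.3 ± 0.538) and Il1r1 (9.76 ± 1.32) stood close together, and each overlapped with its neighbour in that order. Il33 followed at 4.53 ± 0.123 CPM per kb, below every library of those 5 genes. At day 7 Il1r2 (128 ± 11.2 CPM per kb) was highest, ahead of Il1rn (28.8 ± 1.43), Il33 (22.6 ± 1.18), Il1rl2 (19.9 ± 0.693), Il1r1 (14.9 ± 0.134) and Il1rap (14.0 ± 0.251), and no neighbours in that order overlapped.

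At day 14 Il1r2 (121 ± 8.80 CPM per kb) remained in first place, and Il33 (37.0 ± 4.20) and Il1rn (34.7 ± 1.21) overlapped in the next places. Il1rl2 (25.3 ± 0.967) and Il1r1 (24.9 ± 0.662) overlapped as well, and Il1rap (12.2 ± 0.941) was last of the 6 changed genes. Il33, last of these 6 genes at day 1, was thus among the highest at day 14. Il1a never exceeded 1.07 CPM per kb in any library, and the highest library of Il1b stood at 0.408 and that of Il18 at 0.521. Isoforms of a gene were not separated, so a shift between short and long transcripts would also move these values.

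The receptor genes Il1r2, Il1r1, Il1rl2 and Il1rl1 lie side by side on chromosome 1, within a span of 467 kb that ends with the genes of the IL-18 receptor. In order along the chromosome the levels at day 14 were 121 CPM per kb for Il1r2, 24.9 for Il1r1, 25.3 for Il1rl2, 0 for Il1rl1, 0.279 for Il18r1 and 0.00271 for Il18rap. The near end of the cluster was thus measured at all 3 days and its far end was close to 0. The neighbours also changed by different amounts, with Il1r2 12.1-fold higher at day 7 than at day 1, whereas Il1r1 was 1.53-fold and Il1rl2 1.69-fold higher.

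**Figure D4:**
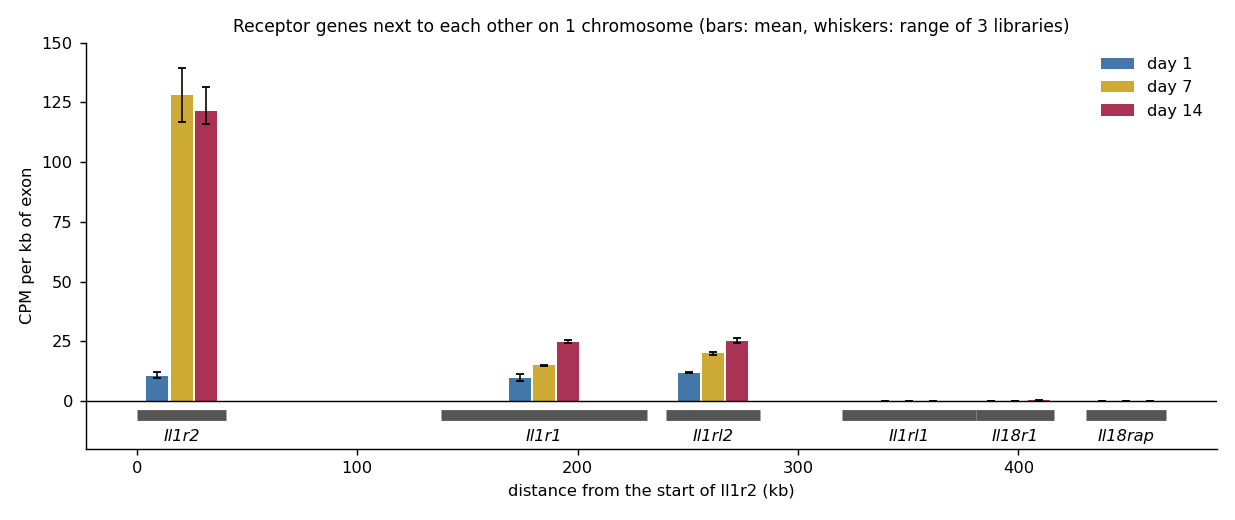
CPM per kb of exon (vertical axis, from 0) of 6 neighbouring receptor genes at postnatal days 1, 7 and 14, placed by their distance in kb from the start of Il1r2, with bars for the mean and whiskers for the range of 3 libraries. Il1r2 stands at 128 CPM per kb at day 7, Il1r1 and Il1rl2 stay at or under 26.3 in every library, and Il1rl1, Il18r1 and Il18rap lie near 0.

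Promoter windows show what the 2 genes with the largest changes, and the antagonist gene Il1rn, carry around a start site. RefSeq windows of 250 bases before to 50 after a start (build GRCm38.p6) were found for all 10 genes, 15 windows in all, and were searched for 5 short motifs on both strands (the TATA box TATAAA on the forward strand only). The windows below are from the plus strand. Capitals mark, for Il1r2, 2 copies of the E-box CACGTG and 1 match to TTCNNNGAA, the spacing bound by STAT factors, for Il33 a TATA box, and for Il1rn a match to the AP-1 motif TGANTCA.

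Il1r2, chr1:40085843-40086142: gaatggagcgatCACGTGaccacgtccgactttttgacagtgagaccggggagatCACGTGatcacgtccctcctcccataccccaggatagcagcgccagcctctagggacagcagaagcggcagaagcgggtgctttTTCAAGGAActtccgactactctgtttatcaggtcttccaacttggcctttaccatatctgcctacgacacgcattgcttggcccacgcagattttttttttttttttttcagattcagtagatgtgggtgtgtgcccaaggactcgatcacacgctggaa

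Il33, chr19:29945540-29945839: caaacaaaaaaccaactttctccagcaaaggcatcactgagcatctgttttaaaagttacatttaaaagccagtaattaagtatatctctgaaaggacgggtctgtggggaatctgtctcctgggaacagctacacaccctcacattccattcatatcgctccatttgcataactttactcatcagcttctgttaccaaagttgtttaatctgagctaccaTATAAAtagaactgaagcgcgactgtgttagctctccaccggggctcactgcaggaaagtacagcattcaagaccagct

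Il1rn, chr2:24336610-24336909: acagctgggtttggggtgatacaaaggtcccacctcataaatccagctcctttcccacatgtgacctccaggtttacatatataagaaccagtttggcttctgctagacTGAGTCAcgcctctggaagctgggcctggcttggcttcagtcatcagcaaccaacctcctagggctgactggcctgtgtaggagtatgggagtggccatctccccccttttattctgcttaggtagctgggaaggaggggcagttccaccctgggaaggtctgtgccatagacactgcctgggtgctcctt

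In Il1r2 the E-boxes begin 238 and 195 bases before the start and the STAT-type match 111 bases before it. E-boxes were present in 7.15% of all 32851 windows and in 1 of the 15 of these genes, and TTCNNNGAA in 8.3% and in 1 of 15. The E-box was added to the search after the sequence had been seen. The TATA box of Il33 begins 29 bases before the start, and the other Il33 window has one 203 bases before its start. TATA boxes were present in 8.32% of all windows and in 4 of the 15, the others being those of Il1a and Il1b at 32 and 31 bases before the start. The AP-1 match of Il1rn begins 141 bases before the start and that of Il1a 12 bases before it, and 7.81% of all windows hold one. The other Il1rn windows, which begin at chr2:24345041 and chr2:24345121, held none of the 5 motifs. Nor did any window of Il18, Il1rap, Il1rl1 or Il1rl2, or the Il1r1 window that begins at chr1:40224830. The NF-kB motif was found in 4.51% of all windows and in 1 of the 15, a window of Il1r1. A match describes letters in a window and not a bound site, and no binding was measured here.

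Across the 9 libraries the 6 changed genes followed one another to different degrees. Pearson's r of log2 CPM was 0.995 between Il33 and Il1rl2, 0.99 between Il33 and Il1rn and 0.967 between Il33 and Il1r2, against 0.49 between Il1r1 and Il1rap. With 3 libraries at each of 3 ages, such values reflect mainly how the 3 daily means are spaced, and they are given without a test. The closest profiles were searched over the tested genes, leaving out those with placeholder symbols such as Gm, LOC and Rik names. The closest profiles to Il33 were those of Ttc7 (r = 0.9985) and Scin (0.9979), and to Il1r2 those of Fcgbp (0.9988) and Macrod1 (0.9981). Ndufa4l2 (0.9984) and Il20rb (0.998) were closest to Il1rn, Clock (0.9963) and Fnip2 (0.9962) to Il1r1, Frmd4a (0.9985) and Cyp3a13 (0.9983) to Il1rl2, and Wwc2 (0.9782) and Nckap1 (0.9774) to Il1rap.

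The remaining genes of the family hold the IL-36 cytokines and further receptors and inhibitors, 11 of them in the table and 6 tested. Of the 6, 2 were higher and 1 lower in the first step, 1 was higher and 3 lower in the second, and 2 were higher and 3 lower at day 14 than at day 1, where the shares of all genes were 25.5% and 24%, 32.5% and 35.1%, and 35.5% and 38.4%. Il1f9, which encodes IL-36 gamma, had 7.96, 8.66 and 7.19 CPM at day 1, 20.2, 18.3 and 19.7 CPM at day 7, and 9.49, 7.60 and 7.80 CPM at day 14. It turned at day 7, without overlap between day 7 and either other day. Il1f9 was higher at day 7 than at day 1 (log2 1.29 ± 0.10, adjusted p = 7.10e-07), lower at day 14 than at day 7 (-1.22 ± 0.10, adjusted p = 5.02e-07), and not called between day 14 and day 1 (0.06 ± 0.10, adjusted p = 0.591). Il1f5, which encodes the antagonist of the IL-36 receptor, turned likewise, with 32.6 ± 0.435 CPM at day 1, 48.8 ± 1.12 CPM at day 7 and 18.4 ± 2.12 CPM at day 14 (log2 0.58 ± 0.07 and -1.41 ± 0.07 in the 2 steps, adjusted p = 2.91e-05 and 9.53e-09). The receptor gene Il1rl2 thus continued to rise at day 14 while both of these ligand genes fell.

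The ratio of Il1f9 to Il1f5 counts, computed after the values had been seen, was 0.224 to 0.265 at day 1, 0.369 to 0.425 at day 7 and 0.414 to 0.479 at day 14. Il18bp, which encodes a soluble trap for IL-18, fell in the first step (2.91 ± 0.469 CPM at day 1, 1.64 ± 0.324 CPM at day 7, log2 -0.83 ± 0.23, adjusted p = 0.00904). Il18r1, the ligand-binding chain for IL-18, had 15, 8 and 0 counts at day 1, 0, 0 and 4 at day 7, and 71, 86 and 50 at day 14 (log2 5.74 ± 1.02 for day 14 versus day 7, adjusted p = 0.000401). Every day 14 library was above all others, at levels that still averaged only 1.34 CPM. Sigirr, an inhibitory receptor, averaged 2.60 ± 0.601 CPM at day 14 against 1.56 ± 0.144 CPM at day 1 (log2 0.73 ± 0.23, adjusted p = 0.0117), a call lost without library 6 of day 14 (adjusted p = 0.0673) or with library totals alone (0.0865). Without library 2 of day 7 Sigirr also passed in the second step (adjusted p = 0.0298), and without library 6 of day 1 or library 3 of day 7 Il18r1 passed as lower in the first (0.0335 and 0.0413). Il1f10 was lower at day 14 than at day 7 (log2 -1.12 ± 0.37, adjusted p = 0.0181), a call lost without library 2 of day 7 (0.0633) or library 5 of day 14 (0.0673). Il1f6, Il1rapl1 and Il1rapl2 had 0 counts in all libraries, Il1f8 at most 10 and Il18rap 2 in all.

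Of the genes that mature or release the ligands, 16 were tested. At day 7, 7 were higher and 3 lower than at day 1, where 25.5% of all genes were higher and 24% lower. At day 14, 8 were higher and 4 lower than at day 7 (32.5% and 35.1% of all genes), and 9 were higher and 5 lower than at day 1 (35.5% and 38.4% of all genes). The 4 fell to 2 without library 2 of day 7 or library 6 of day 14, and the 3 became 5 with library totals alone. Nlrp10, of the NLR family of sensors, rose in both steps (4.59 ± 0.610, 10.9 ± 0.785 and 18.6 ± 1.16 CPM at days 1, 7 and 14, log2 1.24 ± 0.11 and 0.78 ± 0.10, adjusted p = 1.37e-06 and 2.44e-05). Pycard, the adaptor that joins sensors to caspase-1, rose in the first step alone (38.4 ± 4.52, 66.9 ± 1.59 and 69.1 ± 6.79 CPM, log2 0.80 ± 0.09 and 0.05 ± 0.09, adjusted p = 1.93e-05 and 0.650). The calpain gene Capn1 rose in both steps (251 ± 17.8, 325 ± 9.23 and 417 ± 17.4 CPM), and Capn2 fell in the second (42.1 ± 3.86 CPM at day 7, 19.1 ± 0.191 CPM at day 14, log2 -1.14 ± 0.09, adjusted p = 2.11e-07). Calpains can cleave the precursor of IL-1 alpha. Other genes of the list fell. Gsdmc was lower at day 14 than at day 7 (log2 -1.78 ± 0.23, adjusted p = 4.20e-05). It had been called higher in the first step (0.57 ± 0.21, adjusted p = 0.0466), a call lost with library totals alone (0.0885), among other alternatives. Aim2 was lower at day 14 than at day 1 (log2 -1.26 ± 0.19, adjusted p = 7.32e-05), and Ctsc fell in the first step (log2 -0.36 ± 0.08, adjusted p = 0.00221).

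The inflammatory caspase genes Casp1 and Casp4 were at or under 6.30 CPM in every library. Casp1, which cleaves the precursors of IL-1 beta and IL-18, averaged 0.557 ± 0.213, 1.35 ± 0.256 and 3.95 ± 1.25 CPM at the 3 days and rose in both steps (log2 1.28 ± 0.33 and 1.55 ± 0.31, adjusted p = 0.00696 and 0.000743). Casp4, the mouse caspase-11 gene, had 3.40, 6.30 and 4.06 CPM at day 14, against 0.379, 0.554 and 0.619 CPM at day 7 (log2 3.15 ± 0.30, adjusted p = 1.50e-06), and it had also risen in the first step (log2 1.61 ± 0.35, adjusted p = 0.00248). These 2 genes were chosen after their values had been seen. Both are also expressed by leukocytes, and a list of 13 leukocyte marker genes summed to 6.82 to 9.54 CPM at day 1, 6.80 to 7.99 at day 7 and 30.2 to 30.4 at day 14, with 7 of its 8 tested genes higher at day 14 than at day 7 (32.5% of all genes). The largest parts of the sum at day 14 were Cd74 (14.2 CPM) and Cd68 (8.73 CPM). Cd207, a marker of Langerhans cells, had 0 counts in each library of day 1, 11, 13 and 9 at day 7, and 64, 46 and 34 at day 14. Ptprc had 6, 3 and 0 counts at day 7 and 9, 8 and 6 at day 14.

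The part of leukocyte RNA in these results and in those of Il18 and Il18r1 was not tested. Of the markers of mast cells, 4 of 6 were at 0 in every library, and the summed level of the 6 was at most 0.0483, 0 and 0.0796 CPM at days 1, 7 and 14. Of the markers of neutrophils, a cell type rich in Il1r2, 5 of 6 were at 0 in every library, and the 6 summed to at most 0.0804, 0.126 and 0.240 CPM. Over all genes tested, 24% were lower in the first step and 35.1% in the second. Melanocyte markers summed to 397 to 422 CPM at day 1, 110 to 131 at day 7 and 8.46 to 11.3 at day 14, with 6 of 6 lower in each step. Fibroblast markers, of which 7 of 8 were tested, summed to 122 to 226 CPM at day 1, 17.3 to 62.1 at day 7 and 17.0 to 38.0 at day 14, with 2 of the 7 lower in the first step and 0 in the second. Endothelial markers summed to at most 5.84 CPM in any library, with 2 of 5 tested lower in each step, and keratinocyte markers to 49628 to 57012, 57711 to 60131 and 44222 to 46440 CPM at the 3 days. Of the 10 keratinocyte markers, 5 were higher and 1 lower in the first step, and 4 higher and 4 lower in the second. The shares of all genes higher in these steps were 25.5% and 32.5%. In bulk libraries, fewer cells of a type and less RNA per cell cannot be told apart.

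Downstream of the receptors, 16 adaptor and kinase genes were tested. At day 7, 5 were higher and 5 lower than at day 1, near the 25.5% and 24% of all genes. At day 14, 11 were higher and 3 lower than at day 7, beside 32.5% and 35.1% of all genes. Without library 3 of day 7, 3 instead of 5 were lower in the first step. In the second step 1 was left of the 3 without any one of libraries 2 and 3 of day 7 or libraries 4 and 5 of day 14, and 1 with RLE factors. Irak3, which encodes an IRAK family member that dampens signalling, had 3.48, 4.05 and 3.04 CPM at day 1, 12.1, 11.4 and 10.2 CPM at day 7, and 20.2, 23.0 and 21.8 CPM at day 14. It rose in both steps (log2 1.67 ± 0.11 and 0.95 ± 0.10, adjusted p = 1.72e-07 and 5.71e-06). Tollip, which encodes another inhibitor of receptor signalling, had 112, 113 and 118 CPM at day 1, 150, 158 and 155 CPM at day 7, and 505, 469 and 491 CPM at day 14. Its main step was the second (log2 1.66 ± 0.05, adjusted p = 1.12e-10, against 0.43 ± 0.05 in the first, adjusted p = 8.35e-06). Irak2, a kinase of the complex, rose in both steps (4.12 ± 0.402, 9.49 ± 1.02 and 12.5 ± 1.03 CPM at days 1, 7 and 14, log2 1.20 ± 0.11 and 0.40 ± 0.11, adjusted p = 3.35e-06 and 0.00662), though the second did not pass with library totals alone (adjusted p = 0.100). Map3k8 had the largest rise of the list in the second step (log2 2.07 ± 0.18, adjusted p = 3.00e-05). Tab1 fell in both steps (log2 -0.25 ± 0.08 and -0.61 ± 0.08, adjusted p = 0.0152 and 1.96e-05). Its first call was lost without library 5 of day 1 or library 3 of day 7. Peli1 fell in the first step and rose in the second (log2 -0.43 ± 0.06 and 0.93 ± 0.06, adjusted p = 6.36e-05 and 4.11e-08).

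NF-kB subunits and inhibitors, listed together with the kinase complex genes Chuk, Ikbkb and Ikbkg, were called higher more often than lower. Of 16 tested, 7 were higher and 0 lower at day 7 than at day 1 (25.5% and 24% of all genes), and 14 were higher and 0 lower at day 14 than at day 7 (32.5% and 35.1%). At day 14, 15 were higher and 0 lower than at day 1 (35.5% and 38.4%). With libraries scaled by their totals alone the counts were 5 higher and 1 lower, 13 and 1, and 14 and 1. Without library 4 of day 1, 4 instead of 7 were higher in the first step, and 1 gene was lower in the second step without that library, without library 1 of day 7, without library 6 of day 14 or with no filter on low counts. The median log2 change of the list was 0.20, 0.52 and 1.00 in the 3 comparisons, beside -0.00053, -0.04 and -0.05 over all genes. Rel, a subunit of the dimer, averaged 21.5 ± 1.63, 31.2 ± 3.21 and 112 ± 6.67 CPM at days 1, 7 and 14 (log2 0.53 ± 0.08 and 1.84 ± 0.08 in the 2 steps, adjusted p = 0.000158 and 2.64e-09). Tnfaip3, which encodes the feedback inhibitor A20, had 72.2, 82.0 and 121 CPM at day 1, 140, 57.4 and 83.5 CPM at day 7, and 458, 817 and 924 CPM at day 14 (log2 2.97 ± 0.46 for day 14 versus day 7, adjusted p = 0.00127). The day 14 libraries were all above the others and spread more widely. Nfkbid, another inhibitor, averaged 38.9 ± 3.66 CPM at day 14 against 6.45 ± 3.34 CPM at day 7 (log2 2.59 ± 0.34, adjusted p = 0.000422).

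Genes known to respond to IL-1 in epithelial cells were tested for 16 of 22. Of these, 6 were higher and 1 lower at day 7 than at day 1, beside 25.5% and 24% of all genes. At day 14, 8 were higher and 4 lower than at day 7 (32.5% and 35.1% of all genes), with 8 and 4 also against day 1 (35.5% and 38.4%). Without library 1 of day 7 the lower genes of the first step numbered 4. Ccl20, a chemokine for CCR6-bearing leukocytes, had 1.08, 1.79 and 1.09 CPM at day 1, 11.5, 12.1 and 12.4 CPM at day 7, and 5.81, 6.05 and 5.83 CPM at day 14. The 3 days did not overlap, and Ccl20 turned at day 7 (log2 3.19 ± 0.17, then -1.03 ± 0.15, adjusted p = 2.82e-08 and 6.90e-05). Zc3h12a, which encodes an RNase that limits cytokine transcripts, rose in both steps (35.2 ± 8.76, 93.6 ± 13.8 and 364 ± 13.7 CPM at days 1, 7 and 14, log2 1.41 ± 0.18 and 1.96 ± 0.18, adjusted p = 0.000484 and 4.32e-05). Ptgs2, which encodes cyclooxygenase 2, rose in the second (182 ± 44.7 CPM at day 14 against 35.7 ± 6.24 CPM at day 7, log2 2.35 ± 0.27, adjusted p = 0.000250). Il23a fell in the first (3.09 ± 0.735 CPM at day 7 against 9.54 ± 2.60 CPM at day 1, log2 -1.62 ± 0.22, adjusted p = 0.000114). It was higher again at day 14, at 4.84 ± 0.537 CPM (log2 0.65 ± 0.22 against day 7, adjusted p = 0.0241), a call lost with library totals alone (0.0740) and without any one of libraries 2 and 3 of day 7 and libraries 5 and 6 of day 14 (0.0816, 0.0939, 0.0898 and 0.0527). Cxcl1 was lower at day 14 than at day 1 (5.60 ± 0.782 against 14.9 ± 4.10 CPM, log2 -1.41 ± 0.38, adjusted p = 0.0117).

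Immediate early and heat shock genes, which are known to respond to tissue handling, moved over the same days. A list of 17 immediate early and heat shock genes summed to 21740 to 27880 CPM at day 1, 27323 to 33768 at day 7 and 44664 to 48602 at day 14. That sum joins opposite courses. The immediate early gene Fosb averaged 1229, 1270 and 8478 CPM at days 1, 7 and 14. The heat shock genes Hspa1a and Hspa1b were highest at day 7, with 2192, 3531 and 1260 CPM for Hspa1a and 2685, 4279 and 1756 CPM for Hspa1b. Of the 17, 5 were higher and 0 lower at day 7 than at day 1, beside 25.5% and 24% of all genes. At day 14, 12 were higher and 3 lower than at day 7, beside 32.5% and 35.1% of all genes. The 3 lower genes were the heat shock genes Hspa1a, Hspa1b and Hsph1, while Dnajb1 was not called in that step. The part of the 17 genes in the results for the NF-kB and response genes was not tested.

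**Figure D5:**
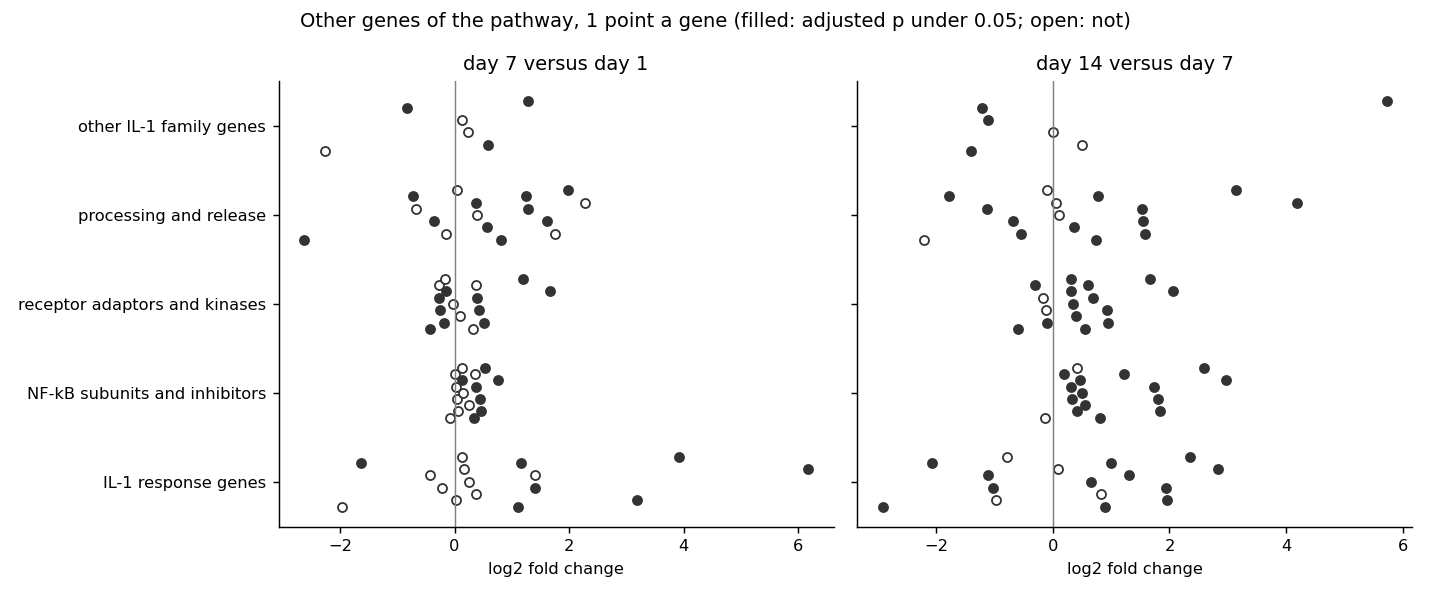
Log2 fold change from edgeR (horizontal axes) of the tested genes of 5 lists, 1 point a gene, for day 7 versus day 1 and day 14 versus day 7, with filled points for an adjusted p under 0.05. In the second comparison 14 of 16 NF-kB genes are filled and right of 0, while the processing and response lists hold filled points on both sides.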

How the data were processed

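Per the submitters' processing notes, tools were bcl2fastq 2.20.0, Trimmomatic, StringTie 1.3.4d and HISAT2 2.1.0, with mm10 as build. How reads were counted, whether strand was used and which annotation served is not given in the sources used here. Values, per the file headers, are deposited read counts per gene, whole numbers that the authors did not normalise. Even values made up 53.1% to 55.1% of counts from 1 to 20. A further 18 columns of per-sample values, whose headers give a day but no sample, were not used.

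After TMM scaling, counts went into edgeR 4.0.16 under R 4.3.3, with 1 robust quasi-likelihood model for the 3 days and 9 libraries. Filtering by filterByExpr left 14507 of 24532 genes, over which p-values were adjusted by the Benjamini-Hochberg method. Beside the 3 pairs of days, contrasts asked for any difference and for second step minus first step, so that 5 comparisons were made. Levels are CPM as mean ± SD of 3 libraries, and fold changes are log2 ± SE. Exon lengths were those of the GENCODE M21 basic annotation on GRCm38, and coordinates were those of RefSeq, matched by gene identifier for 24462 genes. Within a day libraries correlated with r between 0.986 and 0.991 across genes, and between days with 0.885 to 0.957.

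The members and lists were chosen with earlier results of these data known. The text names all members, the other IL-1 family genes with counts, the 2 genes most like each member of at least 5 CPM, and, per pathway list and pair of days, up to 3 called genes with the largest rise and fall at a mean of at least 5 CPM. Not every gene so named is reported. The procedure was also tested on simulated counts. Alternatives were DESeq2 1.42.0, RLE factors, library totals alone, no filter on low counts, a fit of the 2 days compared, and each library left out in turn.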

Additional observations from a re-analysis of the deposited data

How the results depend on the processing

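Over the 9 tested genes, the 5 comparisons and the alternatives (DESeq2, RLE factors, library totals alone, no filter on low counts, the 2 compared days alone, and each of 9 libraries left out), 611 values were recomputed, and 603 kept their call. That is, called changes stayed called in the same direction, and uncalled ones stayed uncalled. Uncalled changes could turn sign. For day 7 versus day 1, Il18 (log2 0.39) ranged from -0.59 to 5.62 and Il1a (0.11) from -0.23 to 0.65. With library totals alone the change of Il1rap between day 14 and day 1 turned to -0.036 (adjusted p = 0.575), Il1rn lost its second step (log2 0.09, adjusted p = 0.243), and Il1r2 passed in its second step (-0.26, adjusted p = 0.0276). Il18 and Il1a account for the other 5 values, each newly past the threshold without a day 1 library or with 2 days alone. That scaling moved the median of all genes to -0.10, -0.21 and -0.32 log2 for day 7 versus day 1, day 14 versus day 7 and day 14 versus day 1, and the share of calls that were higher to 35.7%, 34.9% and 31.9%, beside 51.5%, 48.1% and 48.1% with TMM factors. The cause was not tested. Counts of calls over all genes moved by no more than 1.5 times under any alternative that was run. Of 40 pathway and family genes in 3 comparisons, 1586 values kept their call, 75 lost and 18 gained one, and no called change turned direction. No paired analysis was possible because the columns carry numbers that cannot be matched to the replicate numbers of the titles. Ratios of TPM were not run, since those columns were not used. At this depth 3 counts are 0.0444 to 0.0599 CPM in a library, and Il1rl1 and Il18 lie close to that limit.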
